A study of Gallus gallus with 14 samples.

Results

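The genes of the respiratory chain and the ATP synthase were followed, complex by complex, through development of the chicken retinal pigment epithelium (RPE), the pigmented cell layer behind the photoreceptors. Members were the probe sets whose single gene symbol began with NDUFA, NDUFB, NDUFC, NDUFS, NDUFV, UQCR, COX4 to COX8 or ATP5, or equalled SDHA, SDHB, SDHC, SDHD or CYC1. Names of NDUFAF assembly factors were left out. The rule used names alone, but was chosen with earlier results of these data known. It gave 118 of 38439 probe sets and 66 of 13009 genes. Complex I had 34 genes in 61 probe sets, complex II 2 in 3, complex III 8 in 16, complex IV 8 in 12, and the ATP synthase 14 in 26. SDHB, SDHC, CYC1 and COX7A2 had no probe set of a single symbol in the annotation supplied, nor did any gene of the mitochondrial genome, and they were not analysed here.

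The respiratory chain passes electrons from NADH and succinate to oxygen in the inner mitochondrial membrane and pumps protons outward, and the ATP synthase uses the returning protons to make ATP. Complex I oxidises NADH, complex II (succinate dehydrogenase) oxidises succinate, complex III hands electrons to cytochrome c, and complex IV (cytochrome c oxidase) reduces oxygen. The mature RPE relies on mitochondrial respiration and leaves much of the glucose it takes up to the photoreceptors. Roles given below are those known from mammals.

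RNA came from RPE sheets of chicken embryos and was hybridised to Affymetrix chicken genome arrays, 1 preparation per array. Embryonic days 7 and 18 (E7 and E18) had 4 arrays each, and E10 and E14 had 3 each. Each array held an independent preparation whose sheets were pooled from 20 to 30 eyes, so single embryos were not measured. The labels give age as the difference between the groups, and name no strain, sex or treatment. The values below are log2 signals after quantile normalization, levels were not compared between probe sets, and a change is the log2 difference of 2 age means, given ± its standard error (SE) from limma.

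Array medians of the deposited signal ran from 83.3 to 145, and the number of arrays limits the precision. E7 replicates 1 and 2 and E18 replicates 2 and 3 stood apart by the 3′ to 5′ ratio of the actin control probe sets. It was 1.18 to 1.30 there and 1.36 to 1.73 on the other 10 arrays. The same ratio for EEF1A1 did not set these 4 arrays apart: they lay within the 1.30 to 1.61 of the other 10 arrays. The EEF1A1 ratio differed with age, at 1.34 to 1.37 on the E7 arrays and 1.48 to 1.61 on the E18 arrays. Every E18 array thus lay above every E7 array, and the part of this difference in the changes from E7 to E18 was not tested. The 4 arrays that stood apart and E7 replicate 3 were the 5 arrays without an instrument file. The other 9 arrays shared 1 scanning session. That session held 1 array of E7, whose spread was taken from the other ages in a fit to those 9 arrays. The fluidics station followed age in that session, and no station held both E7 and E18 arrays. Of the listed RPE markers with a probe set, 14 of 14 were kept by the filter. The filter used the mean over all arrays, so this does not show that each was present at every age. RPE65 rose from 9.30 ± 0.38 at E7 to 15.02 ± 0.04 at E18 (SD, n = 4 each). It does not stand for the list. Of the 14 markers 7 rose from E7 to E18 and 3 fell at a limma adjusted p under 0.05, against 21.6% and 26.7% of all genes. Their changes ran from -0.65 to 5.94, with a median of 0.13.

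From E7 to E18, 34 of the 65 tested member genes rose and 4 fell at an adjusted p under 0.05 (a call). Over all 10206 genes tested, 21.6% rose and 26.7% fell. The median change was 0.19 over the members and -0.047 over all genes. The members were bright, with a median log2 signal of 12.74 beside a filter limit of 6.20, and the genes they were set beside were not matched for signal. The rises included NDUFA5 and NDUFS3 of complex I, SDHD of complex II, the small subunits of complex III, COX6A1 of complex IV and ATP5G1 of the ATP synthase, and they reached at most 2.13-fold. In bulk samples such as these, fewer cells of a type and less RNA per cell cannot be told apart. COX7B, the remaining member, was dim at every age, with a highest log2 signal of 6.36, and was not tested.

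In complex III 6 of 8 genes rose and in complex IV 6 of 7, with median changes of 0.48 and 0.34. In complex I 17 of 34 rose and 1 fell, the median being 0.13, and in the ATP synthase 4 of 14 rose and 3 fell, the median being 0.099. The last 2 medians were 0.076 and 0.021 without the 4 arrays that stood apart, and that of the ATP synthase was 0.039 without E7 replicate 2. Genes were counted by their brightest probe set. Among those not called on it, NDUFA9, NDUFA10, NDUFA12, NDUFB4, NDUFS1 and ATP5J had a called rise on another. NDUFB3 had a called fall, and ATP5O had both. In turn, the rises of NDUFA13, NDUFB2, COX5A, COX6A1, COX6C, COX7C and ATP5G1 were not called on their second probe set. With all probe sets of a gene averaged, the median of complex I lay above that of complex IV. The complexes were not compared with each other by a test. Of the pair in complex II, SDHD rose and SDHA was not called after quantile normalization. SDHA was called at higher levels in E18 under both other scalings, which differ by the same shift for every gene. Every array of E18 lay above every array of E7 in 28 of the 65 genes, against 19% of all genes, and below in 3, against 23.3%. The groups overlapped in the other 34 genes.

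**Figure D1:**
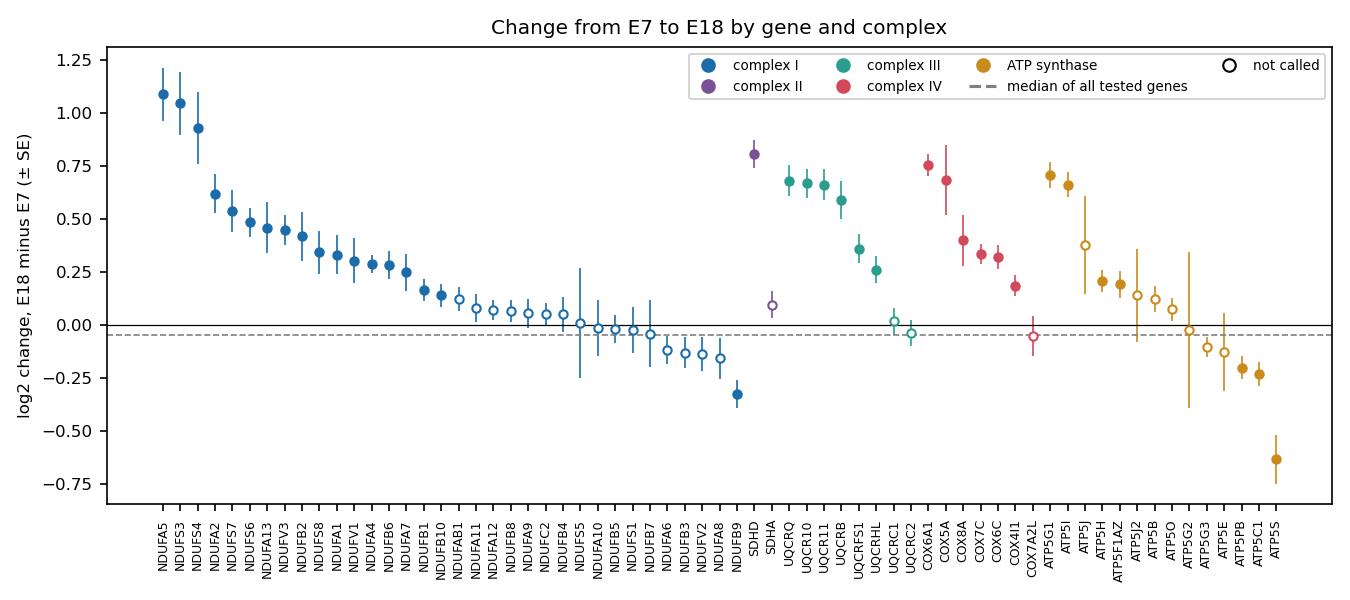
Log2 change from E7 to E18 (vertical axis, mean difference ± SE of the limma fit, 4 arrays each) of the 65 tested genes, ordered within each complex; filled points were called and the dashed line is the median of all tested genes. Rises reached 1.09 (NDUFA5) and falls -0.63 (ATP5S), and of the 4 called falls the sign turned in ATP5C1 and ATP5PB on the deposited scale and in NDUFB9, ATP5C1 and ATP5PB after median centring.

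These counts moved with the scaling of the arrays. Over all tested probe sets the E7 to E18 change had a median of -0.048 after quantile normalization, -0.20 on the deposited scale and 0.071 after centring each array on its median. The share of higher genes among all called probe sets was 45.2%, 35.2% and 59.9% in the same order. On the deposited scale 44 members rose and 1 fell, with a median change of 0.35 beside -0.16 over all genes. Of all 10206 genes tested, 1953 rose and 3170 fell on that scale. After median centring 56 members rose and 1 fell, with a median of 0.62 beside 0.11. Of all genes, 2880 then rose and 1682 fell. Of the 34 rises, 33 were called under all 3 scalings, the exception being COX4I1 on the deposited scale. Of the 4 falls, only ATP5S was called under all 3, and the sign turned in 2 of the others on the deposited scale and in 3 after median centring. Median centring added the same amount to every E7 to E18 change of the deposited scale. The deposited and centred values are thus not independent checks of a gene. Without the 4 arrays that stood apart 30 members rose and 3 fell, 29 and 3 of them among the original calls. Within the shared session 28 rose and 3 fell, of which 27 and 2 were among the original calls, and none of the 38 called changes turned its sign in either subset.

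**Figure D2:**
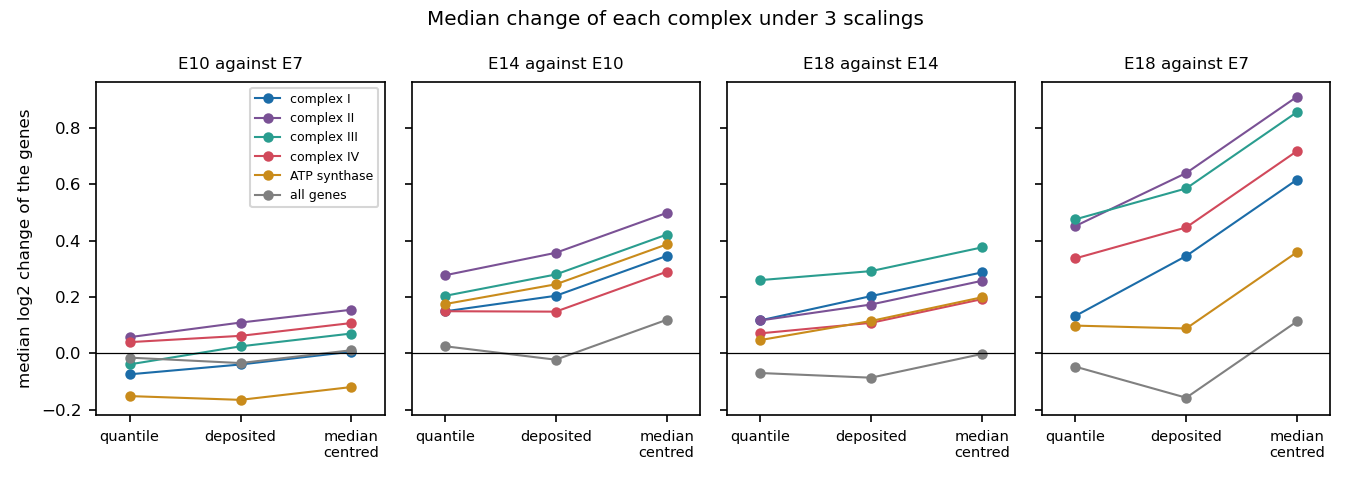
Median log2 change of the genes of each complex and of all tested genes (vertical axis) in 4 comparisons of ages, under quantile normalization, the deposited scale and median centring (horizontal axis). From E7 to E18 the 5 complexes lay above all genes under each scaling, while from E7 to E10 the median of complex III turned from -0.039 to 0.025 and 0.071, and that of complex I from -0.074 to 0.0062 after median centring.

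Complex I has a core of subunits that carry the electrons and the quinone site, surrounded by accessory subunits. These role groups, and those of complex III and the ATP synthase below, were set after their values were seen. Of the 6 core subunits tested 4 rose from E7 to E18, with a median change of 0.32, and of the 28 accessory subunits 13 rose and 1 fell, with a median of 0.10. NDUFS3, a core subunit of the arm that reaches into the matrix, read 10.22, 10.14, 9.76 and 10.12 at E7, 10.26, 10.16 and 10.06 at E10, 10.20, 10.26 and 10.34 at E14, and 10.79, 11.47, 11.36 and 10.80 at E18. The first 3 ages overlapped, and all E18 arrays lay above them. The change from E7 to E18 was 1.05 ± 0.15 (limma adjusted p = 2.88e-05), or 2.07-fold, and most of it fell between E14 and E18, at 0.84 ± 0.16 (adjusted p = 0.00138). E18 replicates 2 and 3, which stood apart, were the higher E18 arrays. Within the shared session the 2 changes were 0.68 and 0.54, the later still called. Without the 4 arrays that stood apart the later one was 0.53, from the same E14 and E18 arrays.

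NDUFA5, an accessory subunit of the same arm, followed a like course. Its signals were 11.66, 11.65, 11.30 and 11.42 at E7, 11.52, 11.47 and 11.53 at E10, 11.70, 11.89 and 11.86 at E14, and 12.30, 12.93, 12.78 and 12.37 at E18. E18 lay above all earlier ages without overlap, again with replicates 2 and 3 highest. It rose 2.13-fold from E7 to E18, by 1.09 ± 0.13 (adjusted p = 2.98e-06, 95% confidence interval 0.82 to 1.35). The change was 0.98 without the 4 arrays that stood apart and 0.92 within the shared session.

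NDUFS4, an accessory subunit that stabilises the NADH-oxidising module and whose loss causes Leigh syndrome in humans, rose earlier. It read 9.59, 9.98, 10.40 and 10.55 at E7, 11.00, 10.62 and 10.67 at E10, 10.96, 10.74 and 11.08 at E14, and 11.13, 10.93, 10.95 and 11.24 at E18. The E7 arrays were spread over nearly 1 log2 unit and all lay below E10, while E10, E14 and E18 overlapped. The change from E7 to E18 was 0.93 ± 0.17 (adjusted p = 0.000325). That from E7 to E10 was 0.64 ± 0.18 (adjusted p = 0.0313). The early call was lost without E7 replicate 1 (0.46), E7 replicate 2 (0.59), E10 replicate 1 (0.52), E10 replicate 2 (0.71) or E10 replicate 3 (0.68). It was also lost within the shared session (0.22, adjusted p = 0.422) and without the 4 arrays that stood apart (0.30, adjusted p = 0.145).

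NDUFS7, the core subunit that passes electrons to quinone, rose by 0.54 ± 0.10 from E7 to E18 (adjusted p = 0.000368). Its E10 arrays read 11.74, 12.14 and 12.14 and its E14 arrays 12.50, 12.46 and 12.44, without overlap, a rise of 0.46 ± 0.12 (adjusted p = 0.026). That call was lost without E10 replicate 1, at 0.33, and without any 1 of the E14 arrays, at 0.44 to 0.47. The core subunits NDUFS8 and NDUFV1 rose by 0.34 and 0.30 from E7 to E18, and NDUFV2 and NDUFS1 were not called, at -0.14 and -0.021. With median centring NDUFS1 was called at 0.41. Its other probe sets gave called rises of 0.47 (adjusted p = 0.0285) and 0.60 (adjusted p = 4.29e-06).

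NDUFB9, an accessory subunit of the membrane arm, was the complex I gene that fell after quantile normalization, a call not made under the other scalings. It read 12.46, 12.58, 12.63 and 12.56 at E7, 12.25, 12.37 and 12.37 at E10, 12.48, 12.56 and 12.45 at E14, and 12.35, 12.25, 12.11 and 12.22 at E18. E18 lay below E7 and E14 on all arrays, and E14 lay above E10. The change from E7 to E18 was -0.32 ± 0.07 (adjusted p = 0.000767), against -0.15 (adjusted p = 0.144) with the deposited scaling and 0.12 (adjusted p = 0.47) with median centring. NDUFA4, first described in complex I and since assigned to complex IV, was counted here by its name and rose by 0.29 ± 0.04.

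**Figure D3:**
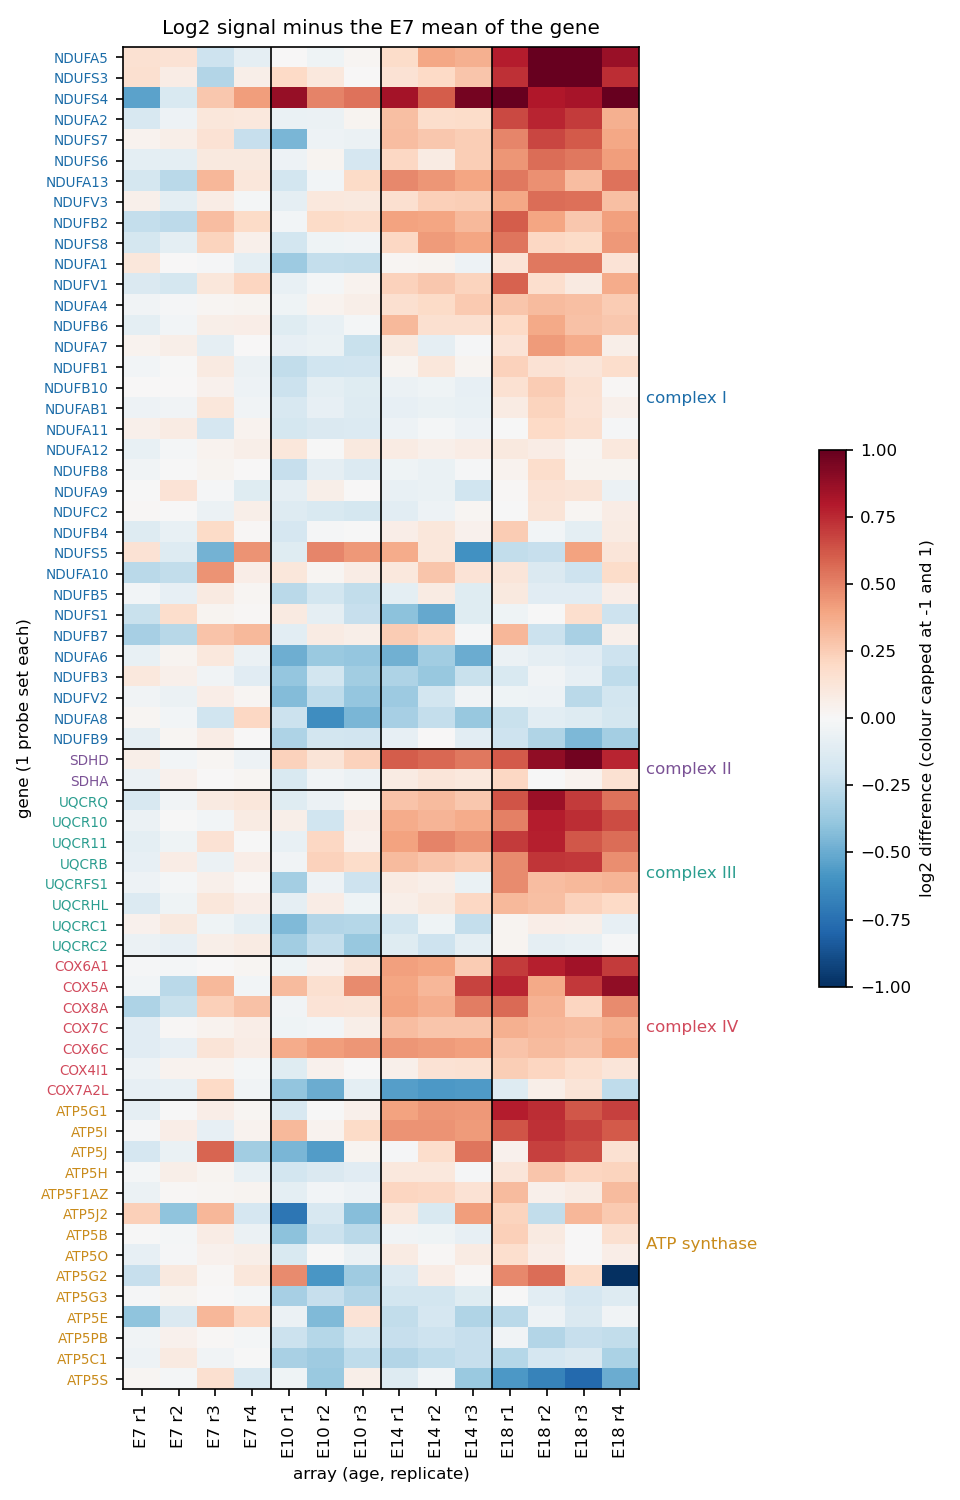
Log2 signal of each tested member gene minus its E7 mean (colour, capped at -1 and 1) on the 14 arrays (columns, by age and replicate), with genes in rows by complex. The E18 columns are mostly red in complexes III and IV and mixed in complex I and the ATP synthase, and E18 replicates 2 and 3 exceed 1 in NDUFA5 and NDUFS3.

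Complex II was measured through a membrane anchor and its catalytic subunit. SDHD, the anchor that helps form the quinone site, read 13.15, 13.06, 13.11 and 13.04 at E7, 13.32, 13.22 and 13.33 at E10, 13.70, 13.66 and 13.62 at E14, and 13.70, 13.98, 14.06 and 13.86 at E18. Each age lay above the one before on all arrays, E18 replicate 1 only just. The change from E7 to E18 was 0.81 ± 0.07 (adjusted p = 7.4e-08), or 1.75-fold, and was 0.70 without the 4 arrays that stood apart. Its steps were 0.20 ± 0.08 from E7 to E10, not called (adjusted p = 0.0921), 0.37 from E10 to E14 and 0.24 from E14 to E18. The step from E10 to E14 was not called in a fit without a trend of variance on signal (adjusted p = 0.0772). With its probe sets averaged that step was 0.67 and not called (adjusted p = 0.0791). The last step was 0.12 and not called within the shared session (adjusted p = 0.209) or without the 4 arrays (adjusted p = 0.205), and it was lost on leaving out E14 replicate 1, 2 or 3 or E18 replicate 2 or 3, at 0.19 to 0.26. The shared session and the fit without the 4 arrays used the same E14 and E18 arrays. SDHA, the flavoprotein that binds succinate, read 11.83, 11.93, 11.89 and 11.90 at E7 and 12.09, 11.88, 11.92 and 12.04 at E18. These groups overlapped, and the change was 0.096 ± 0.062 (adjusted p = 0.261, 95% confidence interval -0.04 to 0.23). It was called at 0.25 with the deposited scaling (adjusted p = 0.0152) and at 0.52 with median centring (adjusted p = 0.000821). SDHD and SDHA were not compared by a test of their difference.

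In complex III the 5 small subunits rose, with a median change of 0.66, while of the 3 larger members the Rieske protein UQCRFS1 rose by 0.36 ± 0.07 and the core proteins UQCRC1 and UQCRC2 were not called, at 0.018 and -0.038. UQCRC1 was called at 0.27 with the deposited scaling and at 0.54 with median centring. UQCRC2 turned its sign under these, to an uncalled 0.14 and a called 0.41. UQCRQ read 12.97, 13.10, 13.22 and 13.24 at E7, 13.01, 13.07 and 13.15 at E10, 13.42, 13.45 and 13.40 at E14, and 13.76, 13.99, 13.83 and 13.68 at E18. E7 and E10 overlapped, and E14 and then E18 lay higher on all arrays. It rose by 0.68 ± 0.07 (adjusted p = 1.22e-06) from E7 to E18, with 0.39 of this after E14.

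UQCR10 and UQCR11 are further small subunits of the membrane part. UQCR10 read 13.73, 13.79, 13.76 and 13.87 at E7 and 14.29, 14.57, 14.53 and 14.44 at E18. UQCR11 read 12.97, 13.02, 13.21 and 13.06 at E7 and 13.77, 13.84, 13.68 and 13.62 at E18. Neither gene overlapped between these ages. UQCR10 rose by 0.67 ± 0.07 (adjusted p = 7.98e-07) and UQCR11 by 0.66 ± 0.07 (adjusted p = 1.33e-06). UQCR11 rose between E10 and E14 by 0.39 (adjusted p = 0.00844), a call lost without E10 replicate 1 (0.33). UQCRB and UQCRHL rose by 0.59 and 0.26 from E7 to E18.

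UQCRC1, a core protein that faces the matrix, showed a dip at E10. It read 13.10, 13.16, 13.02 and 12.96 at E7, 12.62, 12.77 and 12.77 at E10, 12.88, 13.01 and 12.82 at E14, and 13.09, 13.13, 13.11 and 12.98 at E18. E10 lay below every other array, and E7 and E18 overlapped. The change from E7 to E10 was -0.34 ± 0.07 (adjusted p = 0.00419) after quantile normalization. It was not called on the deposited scale (-0.26), after median centring (-0.22) or within the shared session (-0.25).

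In complex IV 6 of the 7 tested genes rose from E7 to E18. COX6A1, the form of subunit VIa found outside striated muscle, read 14.11, 14.11, 14.13 and 14.14 at E7, 14.08, 14.17 and 14.25 at E10, 14.53, 14.52 and 14.38 at E14, and 14.82, 14.90, 14.96 and 14.82 at E18. E7 and E10 overlapped, and E14 and E18 each lay above the age before. The change from E7 to E18 was 0.75 ± 0.05 (adjusted p = 7.81e-09), or 1.69-fold, and steps of 0.31 to E14 and 0.40 to E18 were both called. The step to E14 was not called in a fit without a trend of variance on signal (adjusted p = 0.0905). With its probe sets averaged that step was 0.11 (adjusted p = 0.62). A second, dim COX6A1 probe set, with a mean of 7.34 at E7, changed by 0.33 (adjusted p = 0.193).

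COX5A, an early-assembling subunit that faces the matrix, was measured near the dim end of the arrays. It read 8.02, 7.77, 8.37 and 8.02 at E7, 8.36, 8.21 and 8.52 at E10, 8.44, 8.37 and 8.72 at E14, and 8.81, 8.43, 8.75 and 8.93 at E18. E18 lay just above E7 and overlapped E14. It rose by 0.68 ± 0.16 (adjusted p = 0.003), a call lost when its probe sets were averaged (0.34) and on the arrays without an instrument file (0.54). Its other probe set, with a mean of 7.00 at both ages, differed by -0.0037.

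COX8A, a small subunit in the membrane, read 12.46, 12.54, 13.01 and 13.06 at E7 and 13.34, 13.12, 12.98 and 13.24 at E18. E7 replicates 1 and 2, which stood apart, were its lowest, and the ages overlapped. The change of 0.40 ± 0.12 (adjusted p = 0.0136) was not called without E7 replicate 1 (0.30) or 2 (0.33), nor within the shared session (0.22), and was 0.25 and still called without the 4 arrays that stood apart. COX4I1, to which ATP binds as a regulator, and COX7C rose by 0.19 and 0.34, although COX4I1 was not called on the deposited scale (0.20).

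A pair of complex IV genes had courses of their own. COX6C read 13.81, 13.83, 14.04 and 13.99 at E7, 14.29, 14.33 and 14.36 at E10, 14.36, 14.34 and 14.33 at E14, and 14.20, 14.23, 14.21 and 14.31 at E18. It rose between E7 and E10 without overlap, by 0.41 ± 0.06 (adjusted p = 0.000218), and E18 lay slightly below E14. From E7 to E18 it rose by 0.32 ± 0.06 on its bright probe set, but averaging it with the dim one gave -0.019.

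COX7A2L, which joins complexes III and IV into supercomplexes, read 13.41, 13.42, 13.69 and 13.46 at E7, 13.10, 13.00 and 13.40 at E10, 12.94, 12.92 and 12.93 at E14, and 13.36, 13.55, 13.63 and 13.24 at E18. Its E14 arrays lay below those of every other age, and E7 and E18 overlapped. It rose between E14 and E18 by 0.52 ± 0.10 (adjusted p = 0.00202), a change of 0.37 within the shared session and still called. From E7 to E18 it differed by -0.051 (adjusted p = 0.721), and this turned to 0.21 with the deposited scaling (adjusted p = 0.139) and to a called 0.48 with median centring (adjusted p = 0.00987).

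**Figure D4:**
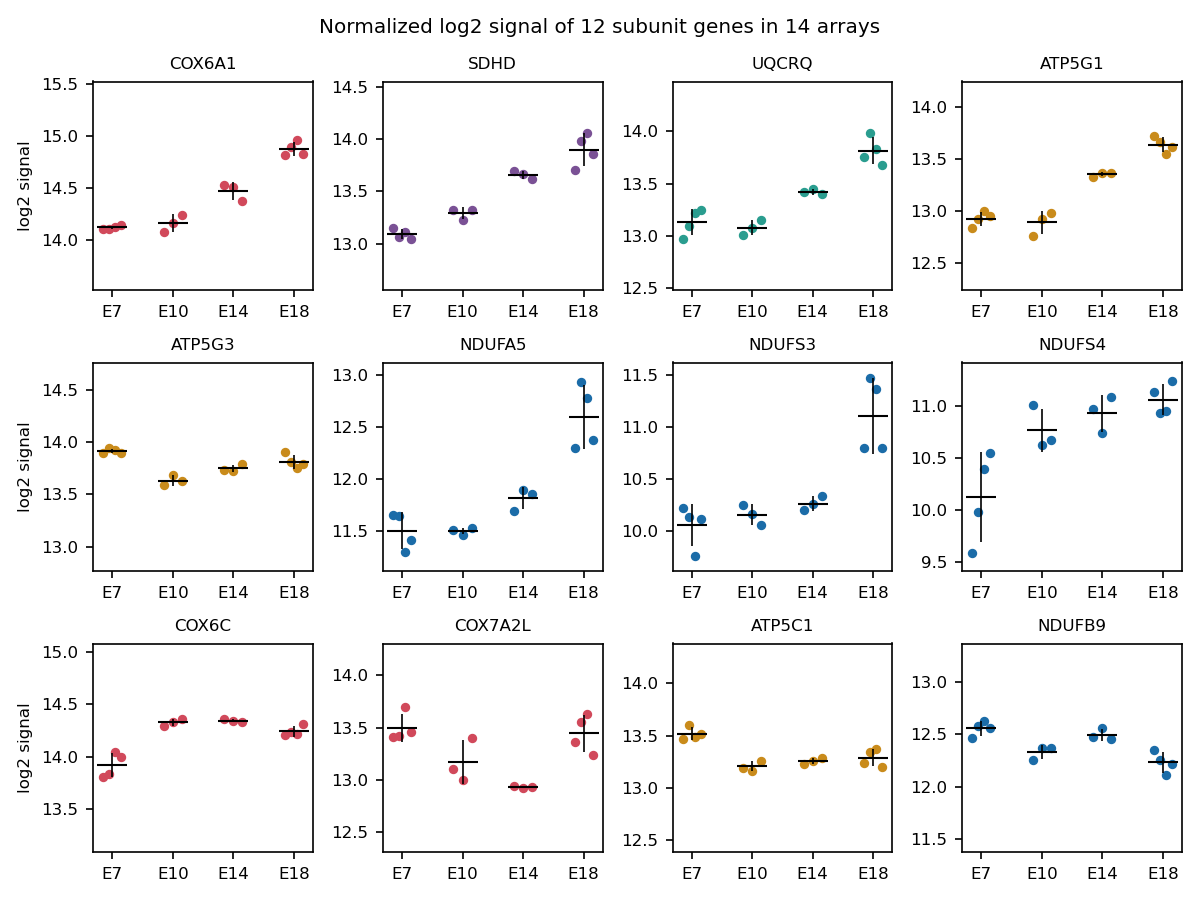
Normalized log2 signal (vertical axis) of 12 member genes on each array by age; points are arrays, horizontal bars are means and vertical bars are the SD (n = 4, 3, 3 and 4). COX6A1, SDHD, UQCRQ and ATP5G1 lay higher at E18 than at E7 on all arrays, COX7A2L was lowest at E14, and the lower E18 signals of NDUFB9 and ATP5C1 were not called on the deposited scale and turned their sign after median centring.

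The ATP synthase consists of a catalytic F1 head, a peripheral stalk that holds it, and a membrane sector whose ring of c subunits turns with the proton flow. From E7 to E18, 1 of the 4 head genes rose and 1 fell, 1 of the 4 stalk genes rose and 1 fell, and 2 of the 5 membrane genes rose. The remaining member, ATP5S, which is named as coupling factor B, fell. Both rises of the membrane sector, in ATP5G1 and ATP5I, exceeded 0.5, and those of the head and stalk were 0.19 (ATP5F1AZ) and 0.21 (ATP5H).

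ATP5G1, ATP5G2 and ATP5G3 encode the same mature c subunit behind different import sequences. ATP5G1 read 12.84, 12.92, 13.00 and 12.95 at E7, 12.76, 12.93 and 12.98 at E10, 13.33, 13.37 and 13.36 at E14, and 13.72, 13.66, 13.55 and 13.61 at E18. E7 and E10 overlapped, and E14 and E18 each stood above the age before. It rose by 0.71 ± 0.06 (adjusted p = 8.82e-08) from E7 to E18, of which 0.46 came between E10 and E14, but the mean with its second, dim probe set gave 0.18 (adjusted p = 0.546). ATP5G3 read 13.90, 13.94, 13.92 and 13.90 at E7, 13.58, 13.68 and 13.63 at E10, 13.73, 13.73 and 13.79 at E14, and 13.91, 13.81, 13.75 and 13.79 at E18. E10 was its lowest age, and E7 and E18 overlapped. Its change from E7 to E18 was -0.10 ± 0.05 (adjusted p = 0.104), with the sign turned by the deposited scaling (0.10, adjusted p = 0.309) and by median centring (0.37, called, adjusted p = 0.0126).

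The log2 ratio of ATP5G1 to ATP5G3 within an array does not move with a constant log2 shift of that array, and was compared as a difference only. It was -1.06, -1.02, -0.92 and -0.95 on the E7 arrays, -0.82, -0.76 and -0.65 at E10, -0.40, -0.36 and -0.43 at E14, and -0.19, -0.14, -0.20 and -0.18 at E18. No ages overlapped. The mean log2 ratio was higher at E18 than at E7 by 0.81, or 1.75-fold. The exact 2-sided permutation p was 0.0286, the smallest that 4 against 4 arrays allow. Adjusted over the 2 pairs tested this p was 0.0571, which is above 0.05. With all probe sets of each gene averaged the difference was 0.28 (adjusted p = 0.629). ATP5G2 was dim, at 6.59, 6.92, 6.83 and 6.93 at E7 and 7.30, 7.38, 7.00 and 5.50 at E18. Its groups overlapped, and the ratio to ATP5G3 differed by 0.078 (exact permutation p = 0.943) and turned its sign on the deposited scale (-0.33) and without E18 replicate 1, 2 or 3.

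ATP5I, the membrane subunit e, read 14.13, 14.21, 14.06 and 14.18 at E7 and 14.77, 14.88, 14.82 and 14.76 at E18. It rose by 0.66 ± 0.06 (adjusted p = 1.17e-07) without overlap. ATP5H, the stalk subunit d, read 13.66, 13.74, 13.71 and 13.61 at E7 and 13.80, 13.95, 13.89 and 13.90 at E18, and rose by 0.21 ± 0.06 (adjusted p = 0.00398). Its groups did not overlap, but the call was lost in a fit without a trend of variance on signal (adjusted p = 0.0517).

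ATP5S was the member with the largest fall. It read 10.73, 10.69, 10.86 and 10.54 at E7, 10.66, 10.33 and 10.76 at E10, 10.58, 10.67 and 10.33 at E14, and 10.13, 10.03, 9.92 and 10.21 at E18. Every E18 array lay below all earlier ones. It fell by 0.63 on the log2 scale from E7 to E18 (SE 0.11, adjusted p = 0.000306), to 0.645 of its E7 level, and by 0.45 from E14. Within the shared session the 2 changes were -0.38 (adjusted p = 0.129) and -0.36 (adjusted p = 0.0848). The later step was also not called without E14 replicate 1 (-0.43) or 2 (-0.38), without the 4 arrays that stood apart (-0.36) or after median centring (-0.45). The fit without the 4 arrays used the same E14 and E18 arrays as the shared session.

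ATP5C1, the gamma subunit of the rotating stalk, read 13.47, 13.61, 13.48 and 13.52 at E7, 13.19, 13.17 and 13.26 at E10, 13.22, 13.26 and 13.29 at E14, and 13.23, 13.35, 13.37 and 13.20 at E18. The later ages overlapped each other and all lay below E7. After quantile normalization it changed by -0.31 ± 0.06 from E7 to E10 (adjusted p = 0.00219) and by -0.23 ± 0.05 from E7 to E18 (adjusted p = 0.00297). The first was not called under the other scalings (-0.23 and -0.19) or with all probe sets averaged (-0.085). The change to E18 turned its sign on the deposited scale (0.045) and after median centring (0.32, called), and was not called on the arrays without an instrument file (-0.16). ATP5PB, the stalk subunit b, was likewise called lower, at -0.20, and turned to 0.022 on the deposited scale and to a called 0.29 after median centring.

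ATP5O, which couples the stalk to the head, was the member gene with called probe sets of opposite sign. The brightest of its 5 probe sets gave 0.074 ± 0.053 from E7 to E18 (adjusted p = 0.306). With the deposited scaling this was a called 0.33 (adjusted p = 0.00233) and with median centring a called 0.60 (adjusted p = 0.000297). Another bright one gave 0.16 (adjusted p = 0.0439), and one with a mean of 6.81 at E7 and 5.82 at E18, near the filter limit of 6.20, gave -0.99 (adjusted p = 0.00585). The catalytic beta and alpha subunits ATP5B and ATP5F1AZ differed by 0.12 (not called, adjusted p = 0.116) and by a called 0.19. ATP5B was called under both other scalings, at 0.38 and 0.65.

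Across the 3 intervals the members did not move at one time. From E7 to E10, 2 of the 65 genes rose and 13 fell, where 8.78% of all genes rose and 8.08% fell. The rises were NDUFS4 and COX6C. The falls were 7 genes of complex I, 2 of complex III and 4 of the ATP synthase, between -0.21 (NDUFB1) and -0.43 (NDUFA8), the latter 2 named after their values were seen. Every E10 array lay below every E7 array in 21 members, against 15.1% of all genes. The falls depended on the scaling: 3 of the 13 were also called on the deposited scale, and 1, NDUFA8, under all 3 scalings, although none turned its sign. Of the 13, 12 were called without the 4 arrays that stood apart and 5 within the shared session, and 8 members in either direction were called without E10 replicate 1 and 7 in a fit without a trend of variance on signal. Among all called probe sets the share of higher ones was 55.1%, and 67.2% after median centring.

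From E10 to E14, 14 members rose: 5 of complex I, SDHD of complex II, 3 of complex III, 2 of complex IV and 3 of the ATP synthase. Of all genes, 4.65% were called higher and 2.79% lower. The share of higher ones among called probe sets was 56.9%, or 74.4% after median centring. The median change was 0.17 over the members and 0.026 over all genes. Every E14 array lay above every E10 array in 40 of the 65 members, against 20.8% of all genes. Of the 14 rises 12 were called under all 3 scalings, and all 14 without the 4 arrays that stood apart and within the shared session, which called 27 each. Neither subset left out an E10 or E14 array. Those fits changed only the normalization and the shared spread, and could not test whether the rises rest on single arrays. The number called dropped to 6 without E10 replicate 1 or E14 replicate 2, to 8 without E10 replicate 2 or E14 replicate 1 or 3, and to 9 without E10 replicate 3. In a fit without a trend of variance on signal 1 was called.

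From E14 to E18, 18 members rose and 2 fell (ATP5S and NDUFB9), against 9.79% and 15.1% of all genes. The rises included 9 genes of complex I and 4 of complex III, and the median was 0.12 over the members and -0.069 over all genes. Every E18 array lay above every E14 array in 29 members, against 15.7% of all genes. Of the 18 rises 17 were called under all 3 scalings, and neither fall was. The share of higher ones among all called probe sets was 42.7%, or 53.2% after median centring. Without the 4 arrays that stood apart and within the shared session 12 members rose and 1 fell. Of these, 10 and 1 were among the original calls in each subset. Both subsets hold the same E14 and E18 arrays, so their like counts are not separate checks. The total of 20 called dropped to 12, 10 and 13 without E14 replicate 1, E14 replicate 2 and E18 replicate 2, and to 10 without a variance trend.

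Over the 4 ages together, 50 of the 65 members changed by the moderated F test, beside 50.9% of all genes. These were 25 of 34 genes in complex I, 1 of 2 in complex II, 8 of 8 in complex III, 7 of 7 in complex IV and 9 of 14 in the ATP synthase. The mean was lowest at E10 in 41 members and highest at E18 in 43. Among all genes, 20.4% were lowest at E10 and 30.3% highest at E18. These counts moved with the scaling, in settings chosen after the data were seen. With the deposited scaling 34 members were lowest at E10 and 55 highest at E18, beside 16.8% and 26.0% of all genes. With median centring they were 28 and 59, beside 23.8% and 38.3%, and more members (32) were then lowest at E7 than at E10. After quantile normalization 11 of 14 genes of the ATP synthase were lowest at E10, and in complex IV 4 of 7 were lowest at E7. The means of 11 members increased through all ages, and those of 1 decreased.

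Other lists of mitochondrial genes were counted over the same E7 to E18 comparison, in which 21.6% of all genes rose and 26.7% fell. Of all 10206 genes tested, 1953 rose and 3170 fell with the deposited scaling, and 2880 rose and 1682 fell with median centring. These are the backgrounds for each list below under those scalings. Of 18 tested carriers, channels and creatine kinases 11 rose and 5 fell. With the deposited scaling these counts were 10 and 4, and with median centring 12 and 1. CKMT1B, the mitochondrial creatine kinase that exports high-energy phosphate, read 6.43, 6.70, 6.32 and 7.26 at E7 and 12.81, 13.54, 13.28 and 12.73 at E18. It rose by 6.41 ± 0.27 (adjusted p = 2.84e-11), and as its E7 signals were near the filter limit of 6.20 the size depends on the pseudocount. VDAC1, the outer-membrane channel, rose by 1.78 ± 0.09 (adjusted p = 2.57e-10).

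Of 14 tested citric acid cycle genes 4 rose and 1 fell (median 0.18), near the background of 21.6% for rises and below that of 26.7% for falls, with rises of 0.65 ± 0.09 in MDH2 and 0.60 ± 0.09 in SUCLA2. With the deposited scaling 4 rose, and with median centring 10 (median 0.43). Of 20 genes of electron entry and cytochrome c 5 rose and 2 fell. With the deposited scaling these counts were 6 and 4, and with median centring 8 and 2. Both proline dehydrogenase (PRODH, 0.82 ± 0.10) and cytochrome c (CYCS, 0.64 ± 0.09) rose. CYCS read 12.68, 12.69, 12.55 and 12.77 at E7 and 13.11, 13.48, 13.49 and 13.15 at E18, without overlap.

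Of 42 assembly factors 9 rose and 7 fell, with 8 and 9 under the deposited scaling and 13 and 5 under median centring. Their median was -0.0022, but -0.12 on the deposited scale and 0.15 after median centring. ACAD9, a complex I assembly factor, read 12.20, 12.21, 12.24 and 12.37 at E7, 12.47, 12.46 and 12.41 at E10, 12.91, 13.00 and 13.02 at E14, and 13.60, 13.49, 13.46 and 13.64 at E18. Its arrays rose from each age to the next without overlap, by 1.29 ± 0.06 in all (adjusted p = 8.33e-11). COX18, which inserts a complex IV subunit into the membrane, fell by 1.19 (SE 0.12, adjusted p = 4.6e-07), with E7 arrays from 9.83 to 10.24 and all later arrays from 8.77 to 9.09.

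Of 27 genes of cristae, prohibitins and import 5 rose and 8 fell, near the background shares. With the deposited scaling these counts were 8 and 7, and with median centring 12 and 1. Over all 10206 genes tested they were 1953 and 3170 with the deposited scaling, and 2880 and 1682 with median centring. Their median was -0.040, but 0.17 after median centring. The translocase subunits TOMM22 and TIMM17B moved in opposite directions, at -0.57 ± 0.05 and 0.58 ± 0.06, both called. Of 22 regulators of mitochondrial biogenesis 4 rose and 7 fell (median -0.22). With the deposited scaling 4 rose and 9 fell (median -0.36), and with median centring 5 and 4 (median -0.089). SSBP1, which binds single-stranded mitochondrial DNA, fell by 1.27 (SE 0.07, adjusted p = 5.08e-10), and TFB1M, a ribosomal RNA methyltransferase of the mitochondrion, rose by 0.97 ± 0.11 (adjusted p = 3.18e-06).

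**Figure D5:**
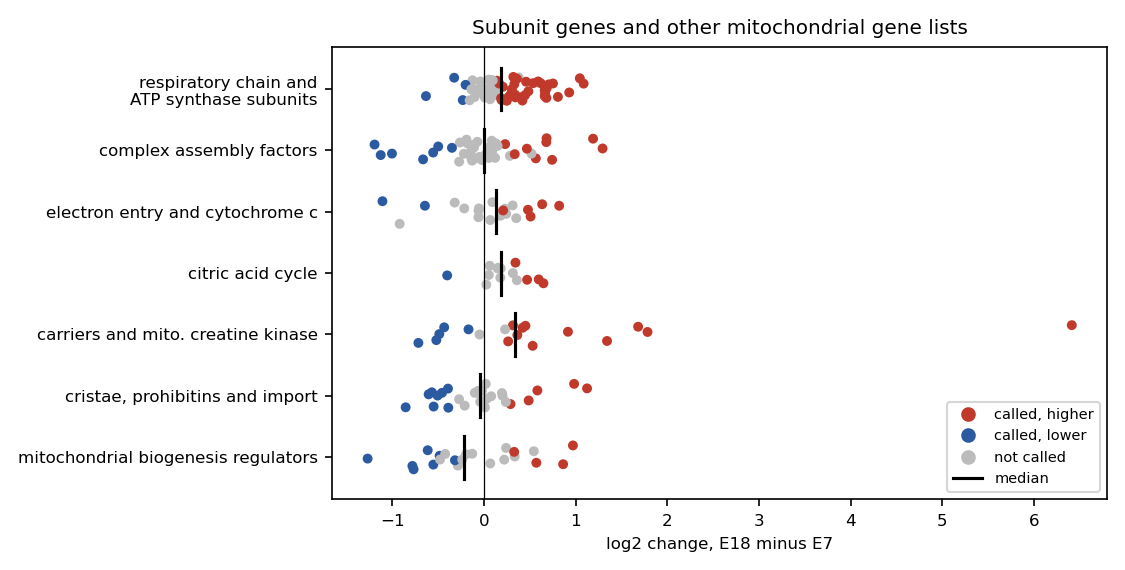
Log2 change from E7 to E18 (horizontal axis) of each tested gene in the subunit list and in 6 other mitochondrial lists, with red for called rises, blue for called falls, grey for genes not called, and black bars for list medians. The subunits have a median of 0.19 and 4 called falls, 3 of which turn their sign after median centring, and the assembly factors have a median of -0.0022, which is 0.15 after median centring.

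Markers of other cell types that sheets of RPE could hold were followed over the same ages. The counts below are for E7 to E18, where 21.6% of all genes rose and 26.7% fell. Of 7 tested photoreceptor markers 4 rose, and their summed linear signal was 617 to 931 on the E7 arrays, 562 to 804 at E10, 1074 to 1209 at E14 and 1974 to 2656 at E18. Leukocyte markers (3 of 8 rose) summed to 4379 to 5700 at E7 and 8742 to 10885 at E18. Endothelial markers (1 of 6 rose) summed to 1920 to 2369 at E7 and 4098 to 4783 at E18. They were higher between these ages, at 5541 to 5872 at E10 and 5203 to 5394 at E14. Erythrocyte markers (1 of 5 rose and 2 fell) summed to 922 to 7413 at E7 and 1420 to 47402 at E18. Their sums were 700 to 1060 at E10 and 12148 to 12647 at E14. Striated muscle markers (2 of 6 rose and 1 fell) summed to 1263 to 1991 at E7 and 1535 to 2026 at E18. Those of retinal neurons and glia (2 of 8 rose and 2 fell), which share RLBP1 with RPE, summed to 39357 to 44315 at E7 and 48737 to 51410 at E18. Their changes ran from -3.11 to 2.90. From E14 to E18, 1 of these 8 rose and 3 fell, with a median of -0.53, where 9.79% of all genes rose and 15.1% fell. A linear sum weighs the brightest probe sets most, so in any list it need not follow the other markers. RPE markers (7 of 14 rose and 3 fell) summed to 222956 to 227483 at E7 and 319161 to 330679 at E18. GNAT1, PDE6H, PDE6C, RBP3 and PRPH2 of photoreceptors, CDH5, KDR, TEK, TIE1, FLT1 and EMCN of endothelium, PTPRC, SPI1 and LY86 of leukocytes and 8 of the 14 muscle markers with a probe set were too dim to be tested. Of the erythrocyte markers with a probe set 5 of 8 were tested, and of those of retinal neurons and glia 8 of 11. The part of these cells in the changes of the subunit genes was not tested.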

How the data were processed

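The deposited values are linear intensities, 1 per probe set and array. Their trimmed mean was 500.1 on every array, so the authors had scaled them; the software is not given in the sources used here. The 9 deposited instrument files, whose unit is recorded as other, gave the scanning session and the fluidics station. Station 1 served E7 replicate 4 and E10 replicate 1. Station 2 served E10 replicates 2 and 3 and E14 replicates 1 and 2. Station 3 served E14 replicate 3 and E18 replicates 1 and 4. Between E7 and E18, age and station cannot be told apart in this session.

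Intensities were used as log2(intensity + 16), quantile-normalized, without 96 control probe sets and without the dimmest 40% by mean signal (limit 57.5), leaving 23063. All 14 arrays were fitted with limma 3.58.1 in R 4.3.3 (lmFit, eBayes with a trend), p-values were adjusted by Benjamini-Hochberg over all 23063, and the brightest probe set stood for a gene. Ratios were tested by exact permutation (scipy 1.17.1). Probe names came from GEO's platform annotation: 27168 probe sets had 1 symbol, 177 several and 11094 none, and 65 of the 66 member genes matched the RefSeq table by Entrez ID with the same symbol. Named were, per complex, the 3 largest called rises and 2 largest called falls from E7 to E18 and the largest called change per interval, genes with opposed probe sets, paralogue pairs, a fixed set with COX6A1, SDHD and SDHA, and the 2 smallest adjusted p per other list. Members and lists were chosen with earlier results of these data known, and role groups after their values were seen. Replicate numbers were checked and did not pair arrays: of 19 same-number pairs 2 had a correlation of deviations over 0.1. The fit was tested on simulated data. No sequences are shown, as no sequence table or genome was used here.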

Additional observations from a re-analysis of the deposited data

Results flagged for a closer look

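Among 130 groups of 4 arrays (E7 and E18 of each tested member), 2 held an array far from the other 3, by the gap to its neighbour as a share of the group's range. Chance flags about 1 in 20 groups. NDUFAB1, the mitochondrial acyl carrier protein, read 12.87 on E7 replicate 3, while the other E7 arrays lay between 12.71 and 12.72. NDUFB8, an accessory subunit of the membrane arm of complex I, read 13.52 on E18 replicate 2, an array that stood apart, while the other E18 arrays all read 13.38. Neither gene was called from E7 to E18 after quantile normalization. Both were called higher on the deposited scale (NDUFAB1 0.34, NDUFB8 0.35) and after median centring (0.61 and 0.62).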

How the results depend on the processing

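Under the 3 scalings none of the 34 rises from E7 to E18 turned its sign, while 3 of the 4 falls did and that of ATP5S did not (-0.63, -0.68 and -0.41). Median centring added the same positive amount to every change of the deposited scale, so a rise on that scale could not turn. Higher and lower members, 34 and 4 from E7 to E18, became 56 and 1 after median centring, and 1 was lower on the deposited scale. Of all 10206 genes tested, 2880 rose and 1682 fell after median centring, and 3170 fell on the deposited scale. Median changes of complexes I, II, III and IV were 0.35, 0.64, 0.59 and 0.45 on the deposited scale. After median centring those of complexes I, II, III and IV and the ATP synthase were 0.62, 0.91, 0.86, 0.72 and 0.36. With all probe sets of a gene averaged they were 0.30 (complex I), 0.55 (II), 0.19 (IV) and 0.037 (ATP synthase). Without the 4 arrays that stood apart they were 0.076 (complex I), 0.25 (IV) and 0.021 (ATP synthase), within the shared session 0.40 (III), 0.25 (IV) and 0.14 (ATP synthase), and on the arrays without an instrument file 0.19 (I) and 0.039 (ATP synthase).

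Members called from E7 to E10, 15 in all, became 7 at a threshold of 0.01, within the shared session or without a variance trend, 6 on the deposited scale and 3 after median centring. From E10 to E14 the 14 became 6 at a threshold of 0.01, 28 with array weights, 27 within the shared session or without the 4 arrays, 1 without a trend, 9 without the filter on dim probe sets and 24 on the ages compared alone. Neither the shared session nor the fit without the 4 arrays left out an E10 or E14 array. From E14 to E18 the 20 became 11 at a threshold of 0.01, 13 within the shared session or without the 4 arrays and 10 without a trend. The shared session and the fit without the 4 arrays held the same E14 and E18 arrays.

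Leaving out 1 array at a time gave 45 to 51 members over the 4 ages, 8 to 16 from E7 to E10, 6 to 16 from E10 to E14, 10 to 23 from E14 to E18, and 30 to 34 higher and 4 to 5 lower from E7 to E18. The medians then ran from 0.099 to 0.16 (complex I), 0.44 to 0.47 (II), 0.46 to 0.50 (III), 0.29 to 0.36 (IV) and 0.039, without E7 replicate 2, to 0.12 (ATP synthase). The ratio of ATP5G1 to ATP5G3 ran from 0.79 to 0.83, and with probe sets averaged it was 0.28. That of ATP5G2 to ATP5G3 ran from -0.11 to 0.50, and was -0.47 within the shared session, -0.33 on the deposited scale and -0.41 without the 4 arrays.

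Of 1087 values of 38 named changes under 29 settings, 1000 kept direction and call, 59 lost the call, 7 gained it and 21 turned their sign. Many of these changes were named because they were called and large in these same data. Some settings also leave out no array of the ages compared. The number kept is thus not an unbiased measure of stability. On the deposited scale the E7 to E18 change turned to 0.045 in ATP5C1, 0.10 in ATP5G3 and 0.21 in COX7A2L. After median centring it turned to 0.32 in ATP5C1, 0.37 in ATP5G3, 0.48 in COX7A2L, 0.12 in NDUFB9 and 0.039 in ATP5G2. With probe sets averaged it turned to -0.16 in ATP5O, -0.019 in COX6C and -0.16 in UQCRC1, and with array weights to -0.025 in UQCRC1. On the arrays without an instrument file it turned to 0.41 in ATP5G2 and 0.070 in COX7A2L, and with a pseudocount of 64 to 0.026 in ATP5G2. Leaving out 1 array gave -0.22 to 0.41 in ATP5G2, -0.11 to 0.019 in COX7A2L and -0.015 to 0.051 in UQCRC1. None of the last 3 was called from E7 to E18 in the original fit, and the cause of these turns was not tested. With the replicate number as a block 49 members were called over the 4 ages, 15, 10 and 24 in the successive intervals, and 34 higher and 4 lower from E7 to E18, and none of the 38 named changes gained or lost its call. That block rests on a shared number only, since 1 of the 14 arrays correlated best with its own number.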
